A study of Homo sapiens with 191 samples.

Results

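The proteasome subunit genes are the protein-coding genes whose symbols begin with PSM, continue with a letter from A to G and end in a number. The annotation, GENCODE release 44 placed on hg19, holds 48 of them among 20090 protein-coding genes, spread over 17 chromosomes. By role, 16 encode the 20S core, 22 the regulatory particles, activators and an inhibitor, 3 the inducible catalytic subunits of the immunoproteasome (PSMB8, PSMB9 and PSMB10) and 7 assembly factors. Chromatin accessibility was measured by single-cell ATAC-seq, in which a transposase inserts sequencing adapters into open DNA, in GM12878, a human lymphoblastoid line of B cells immortalised by Epstein-Barr virus. Cells had been fixed with formaldehyde, permeabilised, transposed in bulk, left unstained and sorted 1 to a well. The libraries, 96 on plate 1 and 95 on plate 2, form 1 group with no treatment and no control, and the deposited list was called on aggregated cells. The methods do not state outright whether libraries that failed the authors' filter were in that pool. The list holds 50000 regions of 501 bp, each centred on a summit, with 1 score per region, the −log10 of the q-value for enrichment of reads at that summit. A higher score means stronger evidence of open chromatin in the pool. The list gives no read counts, no value has a replicate or an error, and all comparisons below are therefore descriptions without a test.

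As background, the 26S proteasome degrades proteins tagged with ubiquitin. Its 20S core is a barrel of stacked alpha and beta rings, in which some beta subunits carry the catalytic sites. The 19S regulatory particle binds the ubiquitin chain, removes it, unfolds the substrate with a ring of ATPases and feeds it into the core. In antigen-presenting cells such as B cells, and after interferon gamma in many others, PSMB8, PSMB9 and PSMB10 replace the constitutive catalytic subunits, and the activator built from PSME1 and PSME2 caps the core. When the proteasome is impaired, the transcription factor NFE2L1 is known to raise its genes together through antioxidant response elements (ARE) in their promoters.

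The letters of the accessible promoters are shown first. A promoter region was a region whose centre lay within 1 kb of an annotated transcription start site (TSS) of the gene, and where a gene had several, the highest-scoring one was taken as its strongest. The ARE, searched as TGACNNNGC on both strands, was found in the strongest promoter region of 18 of the 45 members that had one (40.0%), against 22.9% of the strongest promoter regions of all genes. The 6 matches nearest to a region centre, in genes of regulatory particles and assembly factors, are given in capitals, read on the strand of the match from GRCh37.
PSME2, chr14:24615976-24616004, minus strand: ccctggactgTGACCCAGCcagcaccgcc
PSME4, chr2:54198146-54198174, plus strand: gctctgctggTGACGCTGCagccgccggg
PSMD9, chr12:122326579-122326617, plus strand: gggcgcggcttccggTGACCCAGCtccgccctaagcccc
PSME1, chr14:24605302-24605340, plus strand: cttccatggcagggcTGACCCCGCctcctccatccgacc
PSMD5, chr9:123605316-123605344, minus strand: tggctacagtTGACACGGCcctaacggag
PSMG1, chr21:40555537-40555575, minus strand: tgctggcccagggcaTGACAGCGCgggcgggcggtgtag
These sites lay 18, 22, 24, 24, 32 and 34 bp from the centres of their regions, in the order given.

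Another word recurred among promoter regions of the members, most of the interferon-inducible ones included. The interferon-stimulated response element (ISRE), which factors of the IRF family bind, was searched as GAAANNGAA. In 7 members, among them PSMA2, PSMC4 and PSMG4, the match was the same 9 letters, GAAAGCGAA, found in 1.04% of all genes with a promoter region and singled out after its sites had been seen. Shown are the 4 interferon-inducible genes with it. PSMB8, also inducible, had no ISRE.
PSMB10, chr16:67970756-67970784, minus strand: gggtaaaggcGAAAGCGAAagcaggaagt
PSME1, chr14:24605399-24605427, minus strand: accgcgaaggGAAAGCGAAagcggtaggg
PSME2, chr14:24615829-24615857, minus strand: cctggggagtGAAAGCGAAagcccgggcg
PSMB9, chr6:32821591-32821618, plus strand: catttagggGAAAGCGAAatcgaaagcg
The PSMB9 word lies at the TAP1 end of the DNA between PSMB9 and TAP1, the divergently transcribed gene of a peptide transporter. Shown are 300 bases of this DNA that lie in the accessible region and outside annotated exons, chr6:32821594-32821893 on the plus strand. The stretch starts at the TAP1 end and was cut at 300 bases, short of the main PSMB9 start. It holds a pair of overlapping ISRE words at the left end and, in capitals further right, an ARE read on the minus strand.
PSMB9 and TAP1: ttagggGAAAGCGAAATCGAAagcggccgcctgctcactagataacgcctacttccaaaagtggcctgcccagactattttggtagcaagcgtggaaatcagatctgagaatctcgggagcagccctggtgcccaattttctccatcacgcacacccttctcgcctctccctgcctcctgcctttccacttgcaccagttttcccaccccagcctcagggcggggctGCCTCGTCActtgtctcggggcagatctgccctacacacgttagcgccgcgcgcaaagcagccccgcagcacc

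Nearly all proteasome genes had an accessible promoter. Of the 48, 45 (93.8%) had a promoter region, against 57.2% of the 20090 protein-coding genes. All 22 regulatory, all 3 immunoproteasome and all 7 assembly genes had one, as did 13 of the 16 core genes. The share lay close to those of other sets of genes that most cells use, 92.3% of 78 mitochondrial ribosomal protein genes (72) and 90.6% of 85 cytosolic ones (77). Members had more annotated start sites than the average gene, with a median of 8 against 5. They had a median of 63.5 CpG dinucleotides around the 5′-most start site, against 58. Among genes with at least 5 start sites, 72.0% of 11349 had a promoter region. Among those with at least 5 start sites and CpG counts at or above the lower quartile of the members, 32 of 33 members had a promoter region, against 79.5% of 7658 genes. The share over all genes was thus higher with more start sites, and the part of start sites and of CpG content in the members' share was not tested.

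**Figure D1:**
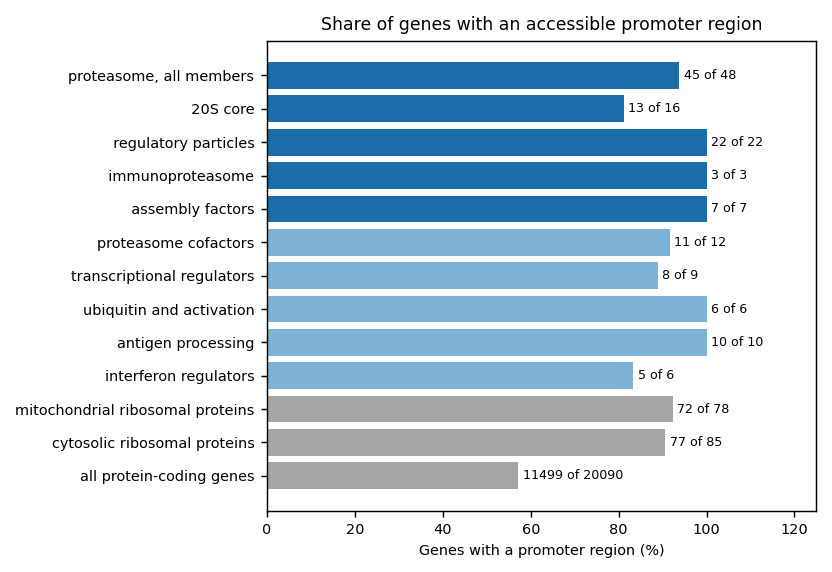
Bars give the share of genes with an accessible promoter region (horizontal axis, %), for the proteasome genes and their 4 classes (dark blue), for lists of functionally linked genes (light blue) and for ribosomal protein genes and all protein-coding genes (grey), with the number of genes beside each bar. The proteasome bar stands at 93.8% and that of all protein-coding genes at 57.2%.

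The count of 45 did not rest on the width of the window. With 500 bp it was 45, against 54.8% of all genes, and with 2.5 kb it was 45, against 60.3%. Taking the 5′-most start site alone left 38 members, against 49.2% of all genes. Regions at or above the median score of the list gave 43 members, against 48.9%, and leaving out the regions at the lowest score gave 45, against 56.7%. The members nearest the edge of the 1 kb window were PSMD13, with a second region of score 21.43 at 858 bp, PSMB1, with its strongest region at 985 bp, and PSMA7, with a second region of score 18.68 at 994 bp.

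The 3 genes without a promoter region were all core genes, and 2 of them are forms restricted to other tissues. PSMA8, the alpha subunit of the testis proteasome, had its closest region 43058 bp from a start site, chr18:23670508-23671008, with a score of 517.47. A pair of regions in its introns scored 52.39 (chr18:23771140-23771640) and 20.05 (chr18:23770534-23771034). PSMB11, the beta subunit of the thymus proteasome, had as its closest region the promoter region of the neighbouring PSMB5, 7107 bp away (chr14:23504064-23504564, score 87.61). Both therefore had accessible DNA in or near the gene, but none within 1 kb of a start site. PSMB4 was different, since it encodes a constitutive beta subunit of the core. It had 0 regions in the gene or within 10 kb, and its closest region lay 52211 bp away (chr1:151319575-151320075, score 473.6). Its 5′-most start site had 69 CpG dinucleotides within 500 bp and a GC content of 55.9%, against member medians of 63.5 and 58.0%. That site thus did not stand out in base composition. Absence from the list means that no summit there was among the 50000 kept, and whether reads were present cannot be read from it.

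Scores among the members spanned 20.05 to 1185.43, with a median of 188.67 and quartiles of 87.61 and 288.79. Over all 11499 genes with a promoter region the median was 129.58, with quartiles of 49.06 and 334.24 and a range of 16.03 to 4437.64. The quartiles of the members thus lay inside those of all genes. Of the 45, 25 were at or above the median of all genes, 11 were above the upper quartile of all genes and 6 were below the lower quartile. By the definition of a quartile, the share above the upper one was close to that of all genes, and only the low end held fewer members. The members' own median was reached by 23 members and by 39.6% of all genes. For comparison, the median was 136.59 over the mitochondrial and 121.74 over the cytosolic ribosomal protein genes.

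**Figure D2:**
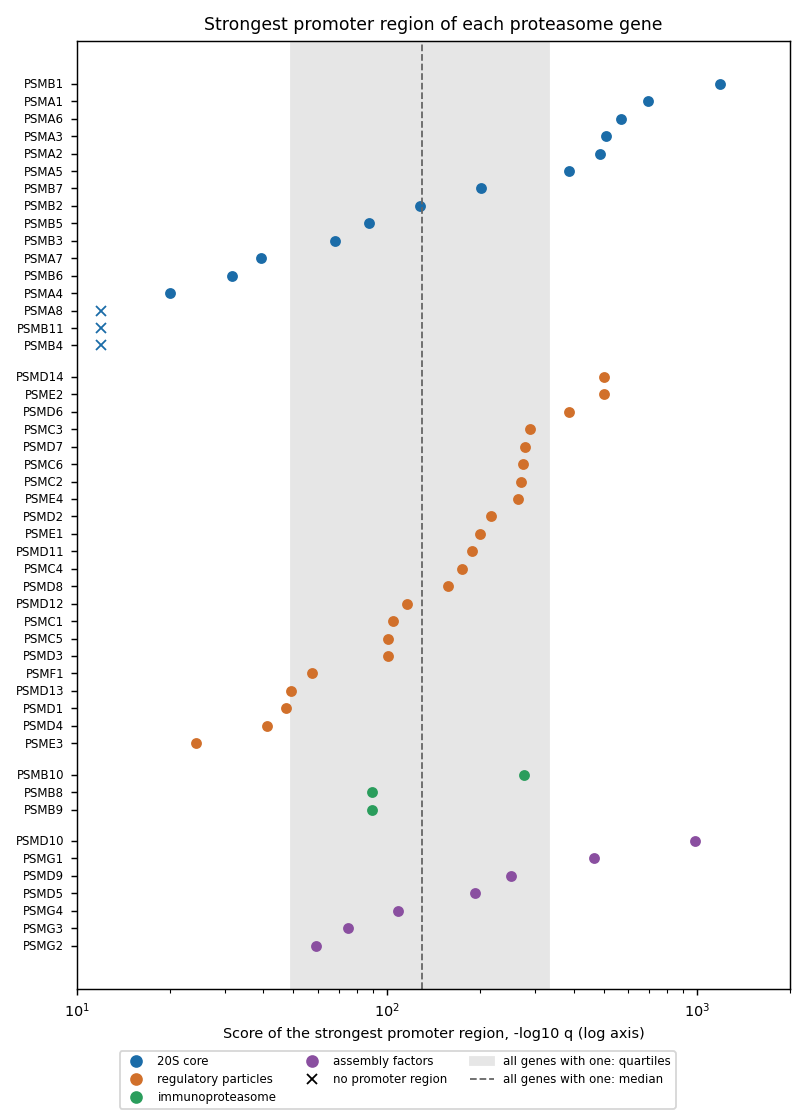
Each point is the score of the strongest promoter region of 1 proteasome gene (horizontal axis, −log10 q, log scale), sorted within the 4 classes, and a cross at the left marks a gene without one. The grey band spans the quartiles of all protein-coding genes with a promoter region, 49.06 to 334.24, and the dashed line is their median of 129.58.

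Within the 20S core, the alpha ring, which gates the barrel, had the higher median score, 488.16 over 7 constitutive genes, against 107.61 over 6 of the beta ring, and the ranges overlapped. PSMA1 was the highest, with a score of 695.52 at chr11:14541797-14542297, 56 bp upstream of a start site and in an intron of a longer transcript. PSMA6 scored 569.34 at chr14:35761261-35761761, 12 bp upstream. PSMA3, PSMA2 and PSMA5 scored 507.67, 488.16 and 385.35. These 5 genes scored higher than the other alpha genes, PSMA7 with 39.36 and PSMA4 with 20.05, the lowest of all members. PSMA7 also had the most GC-rich region of the members, at 78.4%.

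In the beta ring, PSMB1 had the highest value of all members, 1185.43 at chr6:170863130-170863630, but that region lay 985 bp upstream of PSMB1 and 10 bp from a start site of TBP, the TATA-binding protein gene on the opposite strand. The region nearest to the start of PSMB1, chr6:170862171-170862671, lay 26 bp upstream and scored 371.3. PSMB7, which carries the trypsin-like site, scored 201.33, and PSMB2 scored 127.62. PSMB5, with the chymotrypsin-like site, scored 87.61, PSMB3 scored 67.82 and PSMB6, with the caspase-like site, 31.62. The 3 constitutive catalytic genes were thus spread from 31.62 to 201.33.

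The 6 ATPase genes of the 19S particle were the most alike of the larger groups, all between 100.65 and 288.79 with a median of 222.49. PSMC3, PSMC6 and PSMC2 scored 288.79, 275.36 and 270.91, PSMC4 scored 174.08, and PSMC1 and PSMC5 scored 104.43 and 100.65. PSMC2 had 2 further promoter regions, of 89.45 and 44.16.

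The 11 non-ATPase genes of the 19S particle varied more, from 40.95 to 502.78, with a median of 157.65. The highest was PSMD14, the deubiquitinase that strips ubiquitin from the substrate, with 502.78 at chr2:162164660-162165160, 26 bp upstream of a start site. PSMD6 scored 387.69 at chr3:64008879-64009379, in an exon 3 bp downstream of a start site. PSMD7, the partner of PSMD14, scored 279.83, followed by PSMD2 with 216.26, PSMD11 with 188.67, PSMD8 with 157.65, PSMD12 with 115.92 and PSMD3 with 100.65. At the low end stood PSMD13 with 49.06, PSMD1 with 47.42 and PSMD4, a ubiquitin receptor, with 40.95.

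The activators also differed among themselves. PSME2 had 2 strong promoter regions, 500.34 at chr14:24615758-24616258, in an exon and upstream of one of its start sites, and 449.49 at chr14:24616300-24616800. Its partner PSME1 scored 199.21 at chr14:24605095-24605595, 27 bp upstream. PSME4, the PA200 activator of the nucleus, scored 264.25 and PSME3, the PA28 gamma subunit, 24.25. The inhibitor PSMF1 scored 57.45.

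Among assembly factors, the 3 chaperones of the 19S base had a median of 251.01 and the 4 of the core one of 91.57, again with overlap. PSMD10, also known as gankyrin, scored 981.54 at chrX:107334615-107335115, 86 bp upstream of its start. PSMD9 scored 251.01 at chr12:122326372-122326872, 16 bp upstream, and PSMD5 192.88. Of the core chaperones, PSMG1 scored 463.94 at chr21:40555272-40555772, just upstream of a start site, whereas its partner PSMG2 scored 59.15. PSMG4 scored 108.24 and its partner PSMG3 74.91.

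The immunoproteasome genes had accessible promoters in these B cells, with scores of 54.06 to 277.59. PSMB10 had the highest, 277.59 at chr16:67969410-67969910, in an exon 38 bp downstream of an annotated start site, and a second region of 78.5 at chr16:67970425-67970925, in an exon 75 bp downstream of another. PSMB8 scored 89.45 at chr6:32812179-32812679, in an exon with its centre 1 bp upstream of the start. The same region was the strongest for PSMB9, since it lay just upstream of the start of a long PSMB9 transcript on the opposite strand. The region at the start of the main PSMB9 transcript, chr6:32821591-32822091, scored 54.06, with its centre 84 bp upstream, and was shared with TAP1. Within 10 kb of PSMB8 and PSMB9, 1 more region, chr6:32806356-32806856 with a score of 40.95, lay at the promoter of TAP2. Within 10 kb of PSMB10, 1 more region, chr16:67975965-67976465 with a score of 39.36, lay at the promoter of another gene. PSMB8, PSMB9, TAP1 and TAP2 thus held 3 listed regions between them, all below the median of 129.58 for genes with a promoter region. Beside the constitutive subunits they replace, PSMB9 scored 89.45, or 54.06 at its main start, against 31.62 for PSMB6. PSMB8 scored 89.45, from the region it shares with PSMB9, against 87.61 for PSMB5. PSMB10 scored 277.59 at an internal start site, or 78.5 at its 5′ end, against 201.33 for PSMB7. By the strongest region each inducible gene thus had the higher score of its pair, but at its 5′ end PSMB10 had the lower. Without an error these differences cannot be judged.

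**Figure D3:**
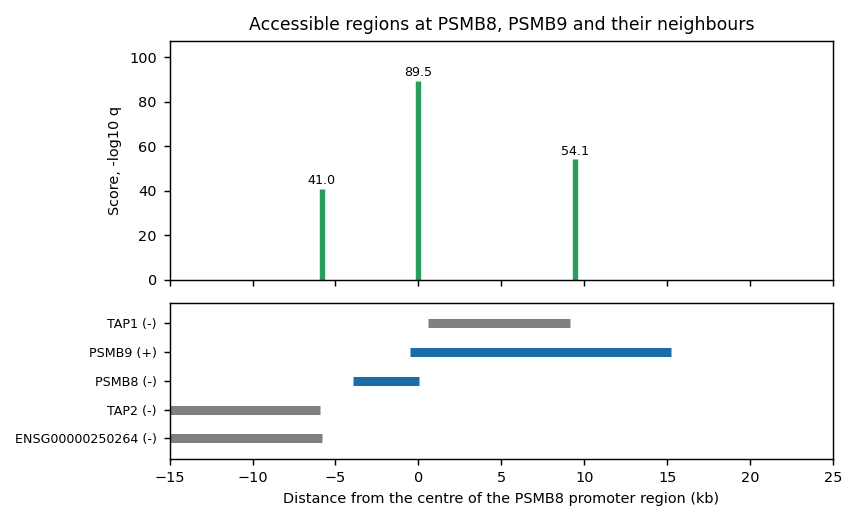
The upper panel gives the score (−log10 q) of each listed region against its distance in kb from the centre of the PSMB8 promoter region, and the lower panel the extent and strand of the protein-coding genes there, with proteasome genes in blue. The 3 regions, of 40.95, 89.45 and 54.06, stand at the starts of TAP2, of PSMB8 with the long PSMB9 transcript, and of TAP1 with the main PSMB9 transcript.

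The regions sat tightly at the start sites. The centre of the strongest region was a median of 72 bp from a start site over the members, against 87 bp over all genes. It lay within 100 bp in 30 of 45 members (66.7%), against 55.0% of all genes, and within 200 bp in 43 (95.6%), against 78.2%. It was upstream in 37 members (82.2%), against 70.0% of all genes, downstream in 7 and at the start in 1. The exceptions beyond 200 bp were PSMB1, through the TBP region, and PSMC4, at 201 bp. Distances were taken to the nearest start site of a gene, and members had a median of 8 start sites, against 5 over all genes. More start sites make a short distance likelier, and their part in these contrasts was not tested.

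**Figure D4:**
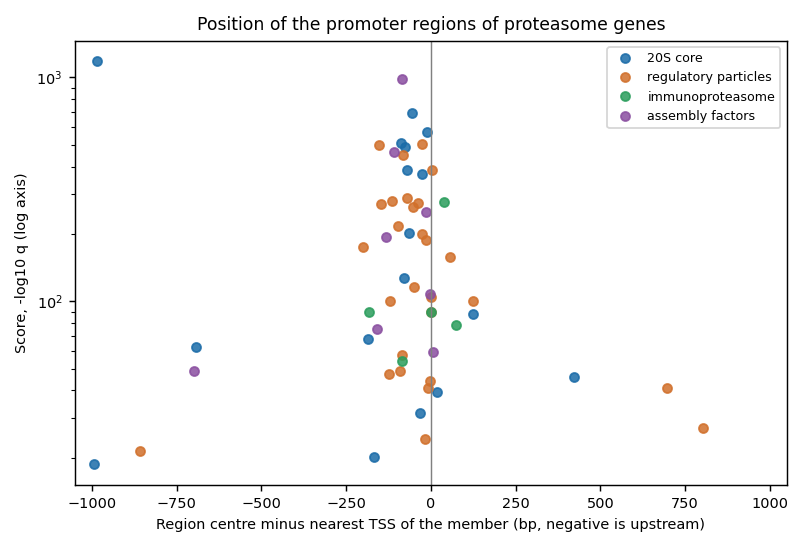
Each point is 1 of the 58 pairs of a proteasome gene and a promoter region, placed by the distance from the gene's nearest start site to the region centre (horizontal axis, bp, negative upstream) and by score (vertical axis, −log10 q, log scale), coloured by class. Points crowd just upstream of 0, and PSMB1 stands alone at −985 bp with 1185.43.

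A second promoter region was present in 11 of 45 members (24.4%), against 42.2% of all genes with a promoter region. The share was 38.5% in genes of a span like that of the members and 41.6% in cytosolic ribosomal protein genes, whereas in mitochondrial ones it was 23.6%. The gene plus 10 kb on either side held a median of 2 regions, with a range of 0 to 5 and a mean of 2.06, against a median of 2, a mean of 2.52 and a maximum of 56 over all genes. PSMA1, PSMA2 and PSME1 had the most, 5 each, and 18 members had a single region. Of the 99 pairs of a member and a region, 58 were promoter regions of the member, 20 were promoter regions of another gene and 21 were at no promoter. These 21 lay in introns (8), in an exon (1) or in the flanks (12) of 16 members. They were weak, with a median score of 21.43 and a maximum of 69.58, near PSMD6. PSME1 owed 3 of its 5 regions to neighbours, those of 500.34 and 449.49 at PSME2 and one of 255.41 between the pair.

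Of the 45 members, 16 (35.6%) shared the strongest promoter region with another protein-coding gene, against 28.0% of all genes, and 13 with a gene on the opposite strand, against 22.7%. The partners included MRPL32, a mitochondrial ribosomal protein gene, at PSMA2, DNAJC2, a ribosome-associated chaperone gene, at PSMC2, FTSJ3 at PSMC5, SIRT3, a mitochondrial deacetylase gene, at PSMD13, and RNF31, a ubiquitin ligase gene, at PSME2. A pair of autophagy genes, ATG4A at PSMD10 and BECN1 at PSME3, also shared a promoter with a proteasome gene. ACYP2 stood at PSME4, CEP76 at PSMG2 and SS18L1 at PSMA7. PSMA1, PSMB10 and PSMD9 shared theirs only with unnamed genes on the same strand. The median score was 257.63 over the 16 members with a shared region and 174.08 over the 29 others. PSMB8 and PSMB9 share 1 region, and over the 15 distinct shared regions the median was 264.25. A score at a shared promoter belongs to both genes and cannot be divided between them.

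Score did not follow base composition or position. Over the 44 distinct strongest regions of the members, the Spearman correlation was −0.03 between score and GC content and 0.05 between score and distance to the start site. These values describe regions of 1 pool and are not independent replicates. The median GC content was 61.1%, with a range of 50.5% to 78.4%, against 64.3% over the 9931 distinct strongest regions of all genes. The 7 members on chromosome 17 all had a promoter region, where 44.6% of its genes did. Their median score was 100.65, against 57.45 for all genes there. On chromosome 14, 7 of 8 members had one, against 64.9% of its genes.

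Of 13 motifs searched in the strongest promoter regions, 3 were more frequent in the members by the largest margins. The ARE, in 40.0% of members against 22.9% of the 9931 regions, was present in 10 of the 22 regulatory members, in 4 of 7 assembly members, in 3 core members (PSMA7, PSMB3 and PSMB6) and in PSMB10. By its letters the word cannot overlap a cyclic AMP response element, TGACGTCA, so the lack of such overlaps carries no information. Of the 24 sites, 17 lay within 100 bp of a start site, 17 lay upstream of it and 5 members had more than 1, with 3 sites in PSMA7. Within 100 bp of the region centre, 13 members had an ARE, against 11.2% of regions. A looser form, TGANNNNGC, was in 32 members (71.1%), against 61.8%, a smaller margin than for the stricter word.

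The ETS word CCGGAAGT was found in 12 members (26.7%), against 9.87% of regions, and 9 of the 12 were regulatory genes. The YY1 word AAGATGGCG was in 6 members (13.3%), against 4.81%, 3 of them core and 3 regulatory. PSMB7 and PSMD8 had both words. Shown are 3 of the ETS sites that lay close to a region centre and the YY1 sites of the core genes, which lay close to a start site.
PSMD14, ETS, chr2:162164922-162164949, plus strand: actagtgaacCCGGAAGTgcttcgcggc
PSMC1, ETS, chr14:90722896-90722923, minus strand: gctgccgctgCCGGAAGTtcctccacca
PSMC2, ETS, chr7:102985209-102985236, minus strand: aagatccatcCCGGAAGTgcttactggt
PSMA2, YY1, chr7:42971742-42971770, minus strand: tcttcgggtaAAGATGGCGgagcgcgggt
PSMB6, YY1, chr17:4699477-4699505, plus strand: ccggaggagaAAGATGGCGgctaccttac
PSMB7, YY1, chr9:127177689-127177717, minus strand: ctttcttgggAAGATGGCGgctgtgtcgg
The ETS sites lay 26, 13 and 10 bp from the region centres of PSMD14, PSMC1 and PSMC2. The YY1 sites lay 3 bp upstream of the nearest start site in PSMA2, 8 bp upstream in PSMB6 and 18 bp downstream in PSMB7. All 3 lay inside the gene, in annotated exons, so those upstream lay ahead of an internal start site only.

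**Figure D5:**
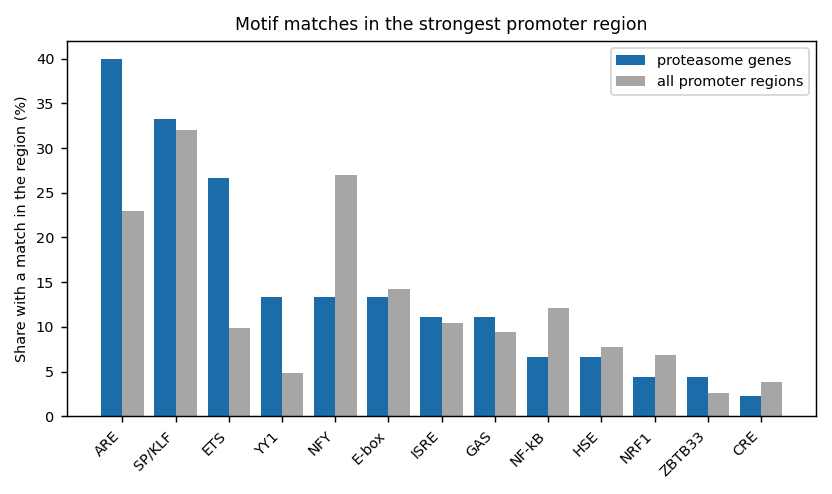
Bars give the share (vertical axis, %) of the 45 proteasome genes (blue) and of the 9931 distinct strongest promoter regions of all genes (grey) with a match to each of 13 motifs, sorted by the share in the proteasome genes. ARE, ETS and YY1 stand higher in the proteasome genes, at 40.0%, 26.7% and 13.3% against 22.9%, 9.87% and 4.81%, and NFY stands lower, at 13.3% against 27.0%.

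The other motifs were near or below the share of all regions. SP/KLF boxes, GGGGCGGGG, were in 15 members (33.3%), against 32.0%. The CCAAT box of NFY, searched as CCAAT with A or G before it and C or G after it, was in 6 (13.3%), against 27.0%. E-boxes, CACGTG, were in 6 (13.3%), against 14.2%. The gamma-activated site (GAS), TTCNNNGAA, was in 5 (11.1%), against 9.45%, and the heat shock word GAANNTTC in 3 (6.67%), against 7.76%. NF-kB sites, by consensus, were in 3 members (6.67%), against 12.1%, namely PSMD4, PSME1 and PSME2. The NRF1 word GCATGCGC was in PSMA2 and PSMA4 (4.44%), against 6.81%, the ZBTB33 word CTCGCGAG in PSMD5 and PSME1 (4.44%), against 2.64%, and the cyclic AMP response element in PSMD3 alone (2.22%), against 3.87%. A match describes letters and shows neither binding nor control.

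The ISRE was in the strongest region of 5 members (11.1%), against 10.4% of regions, a share that did not set the members apart. Over all promoter regions of a gene, it was found in 10 members, against 17.3% of the 11499 genes. PSMB9, PSMB10, PSME1 and PSME2 were among them, and PSMB8 was not. The exact word GAAAGCGAA, looked up after its sites in these genes had been seen, was in 7 of 45 members, against 1.04% of genes. The 7 were PSMB9, PSMB10, PSME1, PSME2, PSMA2, PSMC4 and PSMG4, that is 4 of the 5 interferon-inducible genes and 3 of the other 40 members. The word lay close to a start site in 3 of the inducible genes. It lay 3 bp upstream in PSMB10, 4 bp downstream in PSME1 and 5 bp upstream of an internal start site in PSME2. In PSMB9 it lay 321 bp upstream, next to the start of TAP1. From the centre of the shared region the word lay 237 bp away and the TAP1 start 248 bp, on the same side.

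Most genes that work with the proteasome had an accessible promoter too. Over all protein-coding genes the share was 57.2%, and it was 72.0% over those with at least 5 start sites. The lists that follow are short, and no test was run on them. Of 12 genes for proteasome cofactors and receptors, 11 had a promoter region, with a median score of 320.5. UCHL5, a deubiquitinase of the 19S particle, scored 2488.94, USP14, another, 700.64, POMP, the maturation factor of the core, 320.5, SEM1, a small subunit of the lid, 203.45 and ADRM1, a ubiquitin receptor, 102.53. PITHD1 had none. Of 9 genes of the NFE2L1 pathway, 8 had one, with a median score of 145.14. NFE2L1 itself scored 237.88 and NFE2L2 270.91, NGLY1, which removes glycans from NFE2L1, 952.08, VCP, which extracts it from the membrane, 466.35 and the protease gene DDI2 52.39, whereas NFE2L3, a relative of NFE2L1, scored 45.78. Of the partner factors, MAFG and MAFK scored 25.69 and 24.25 and MAFF had none. All 6 ubiquitin and ubiquitin-activating genes had a promoter region, with 2070.03 for UBA6 and 85.77 for UBB. All 10 antigen processing genes had one too, with a lower median of 47.51, and the range was wide. TAP1, TAP2 and TAPBP scored 54.06, 40.95 and 28.63, whereas CANX, ERAP1, B2M and CALR scored 838.15, 318.22, 186.57 and 113.99. Among 6 interferon response regulators, 5 had one, including IRF1 with 380.65. Some of these scores belong to shared regions. UCHL5, NGLY1, B2M, TAP1 and TAP2 shared theirs with RO60, OXSM, PATL2, PSMB9 and an unnamed gene, in that order.

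The label of the cells was checked on marker genes. A promoter region was present at 8 of 10 B cell markers, at 1 of 6 T cell markers (CD8A, with 27.15) and at 1 of 6 myeloid markers (CD14, with 33.14). The share over all protein-coding genes was 57.2%.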

How the data were processed

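Single GM12878 cells were transposed in bulk and sorted, and 191 libraries carry 1 group label. According to the methods, trimmed pairs were aligned to hg19 (Bowtie2 2.1.0), duplicates (Picard 1.79), poor alignments and mitochondrial reads were discarded, and MACS2 called summits on all cells together. For the MACS2 version, no value is given in the sources used here. From the summits the authors kept 50000 with the smallest q-values, widened to regions. The deposited score is, per the file's values and the methods, −log10 of that q-value. It grows with depth and measures evidence of enrichment, so differences in score are not fold changes in accessibility. The list holds no read counts, and the precision of single scores cannot be given. Removal of multiply mapped reads can lower scores at near-identical copies.

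Coordinates are hg19, 1-based. Genes and start sites were those of GENCODE 44 on chromosomes 1 to 22 and X. Sequence was read from GRCh37, and no region ran past the end of its chromosome there. A region belonged to a promoter with its centre within 1 kb of any start site. Motifs were matched by exact letters on both strands of the whole region. The background was all protein-coding genes, members included, or the distinct strongest promoter regions. Base composition of start sites was taken within 500 bp of the 5′-most start site of each gene. Assembly genes were the PSMG genes with PSMD5, PSMD9 and PSMD10.

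The members, gene lists and motifs were chosen with earlier results of these data known, so no test was run and no p-value is given. Named with coordinates were the 3 highest members of each class, the immunoproteasome genes, PSME1, PSME2 and members without a promoter region. Shared partners, and the ETS and YY1 sequences, were picked once their values were known. Alternative settings varied the window, start sites, flank, part of the list, class definition and motif, and the region nearest to a start site in place of the strongest was added after seeing the data. Some genes of the lists are not reported here by name. Region and motif counting was tested on simulated data. Python 3.11.15, numpy 2.4.6, pandas 2.3.3 and matplotlib 3.10.9 were used.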

Additional observations from a re-analysis of the deposited data

How the results depend on the processing

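Of 30 alternative values, 25 stayed within 1.5 times the value reported and 5 did not. The median number of regions per member was 0.5 without a flank, 4.0 with a flank of 50 kb and 1.0 with regions at or above the median score of the list. With classes taken from symbols alone, 4 assembly genes had a promoter region, since the 3 base chaperones then counted as regulatory. The looser ARE gave 32 members, by its construction. The region nearest to a start site, chosen after seeing the data, gave a median score of 174.08 and 19 members with an ARE. No paired analysis was possible because the list was called on aggregated cells. No library could be left out for the same reason, and a summit below the lowest score kept, 16.03, cannot be told from closed chromatin.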
